A study of Mus musculus with 8 samples.

Results

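Mfge8 and the genes for the proteins that link exposed phosphatidylserine to the surface of another cell were followed in AtT-20 cells, a mouse pituitary corticotrope line, over a tamoxifen time course. The 10 genes, of 55401 listed, were the bridging protein Mfge8 and its integrin subunits Itgav, Itgb3 and Itgb5, the bridging proteins Gas6 and Pros1 and their receptor kinases Axl, Mertk and Tyro3, and the annexin Anxa5. Mfge8 was chosen because its signal rose in these same libraries, so its values are given as a description with no test. The other 9 were chosen for their known role beside it, with earlier results of these data known, so their tests are no independent support for the choice. All 4 groups carry the same introduced gene, ER-Pax7, a fusion of the pioneer transcription factor Pax7 that tamoxifen activates, and they were taken at 0, 24, 48 and 72 h of tamoxifen with 2 libraries each. The labels do not say that the libraries of a group came from separate cultures, nor whether the line is 1 clone, so the spread between libraries may be technical. Vehicle-treated cells at matched times were not used here, and ER-Pax7 activation, tamoxifen itself and hours in culture cannot be told apart. The 3 comparisons share the 0 h libraries.

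Phosphatidylserine is kept on the inner leaflet of the plasma membrane by flippases and appears on the outer leaflet of dying cells, platelets and some vesicles after scramblases act. Mfge8 (milk fat globule EGF factor 8, also called lactadherin) binds this lipid through its discoidin-like domains and binds integrins of the Itgav-Itgb3 and Itgav-Itgb5 type through an RGD motif. Gas6 and Pros1 (protein S) bind the lipid through a domain that needs vitamin K dependent carboxylation. With its other end Gas6 binds the receptor kinases Tyro3, Axl and Mertk (together the TAM receptors), and Pros1 binds Tyro3 and Mertk. Both bridges are best known from the uptake of dying cells by macrophages, and Mfge8 also from mammary epithelium and from exosomes. Anxa5 binds phosphatidylserine in the presence of calcium and is widely used as a probe for it.

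The 250 bases upstream of the start were printed for the 3 genes whose treated libraries all lay above the 0 h libraries, Mfge8, Gas6 and Itgb5, because Pax7 is a DNA-binding factor whose homeodomain reads TAAT and because the series concerns DNA demethylation. Sequences are from RefSeq (GRCm38.p6), 5′ to 3′ on the strand of each gene, and 9 of the 10 genes matched an entry there. Capitals mark TAAT and GGGCGG on either strand, so that ATTA and CCGCCC are also in capitals.
Mfge8 promoter, chr7:79149061-79149310, minus strand: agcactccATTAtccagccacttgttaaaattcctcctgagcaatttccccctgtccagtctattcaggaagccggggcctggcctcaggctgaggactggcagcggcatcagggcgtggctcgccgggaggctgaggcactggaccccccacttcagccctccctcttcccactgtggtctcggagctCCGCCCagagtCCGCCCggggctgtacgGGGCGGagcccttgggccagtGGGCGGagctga
Gas6 promoter, chr8:13494536-13494785, minus strand: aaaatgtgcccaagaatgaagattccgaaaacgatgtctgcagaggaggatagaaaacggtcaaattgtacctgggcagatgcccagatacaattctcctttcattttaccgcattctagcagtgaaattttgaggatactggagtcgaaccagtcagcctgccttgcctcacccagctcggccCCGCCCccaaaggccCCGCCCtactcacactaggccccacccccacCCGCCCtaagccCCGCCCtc
Itgb5 promoter, chr16:33829415-33829664, plus strand: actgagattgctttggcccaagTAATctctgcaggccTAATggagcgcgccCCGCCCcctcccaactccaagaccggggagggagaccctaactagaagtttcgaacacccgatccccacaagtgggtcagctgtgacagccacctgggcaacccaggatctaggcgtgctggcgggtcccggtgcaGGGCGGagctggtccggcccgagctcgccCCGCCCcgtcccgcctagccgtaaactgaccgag
TAAT was present once in the Mfge8 window, on the opposite strand, printed as ATTA from 242 bases upstream of the start. In the Itgb5 window it began at 228 and 213 bases upstream, on the strand of the gene. The Gas6 window held none. Of 32851 mouse promoter windows of this length, 54.9% held TAAT, so its presence or absence does not set these windows apart. The paired form, TAAT followed after a gap of 2 bases by ATTA, was in none of the 3 windows and in 0.384% of all windows. GGGCGG, the core of the GC box, occurred 4 times each upstream of Mfge8 and Gas6 and 3 times upstream of Itgb5, and 32.7% of all windows held it. The motif searches covered both strands, and no TAAT match overlapped a GGGCGG match. CpG dinucleotides numbered 12 upstream of Mfge8, 10 upstream of Gas6 and 18 upstream of Itgb5, against a median of 6 over all windows. These counts were above those of 66.5%, 62.2% and 78.3% of all windows. The other matched members held 24 (Tyro3), 18 (Itgav), 15 (Pros1), 13 (Anxa5), 7 (Mertk) and 5 (Axl). GGGCGG occurred 5 times upstream of Pros1, 3 times each for Tyro3 and Mertk, 1 time for Axl and 0 times for Itgav and Anxa5. Neither count sets the 3 windows apart from those of the other members. The RefSeq start of Gas6 lies upstream of the start in the deposited annotation. The starts of Mfge8 and Itgb5 are the same in both. The Tyro3 window lies inside the span of Tyro3 in the deposited annotation, so its counts are not of sequence upstream of that start. The Anxa5 window overlaps the spans of Anxa5 and 1810062G17Rik. A match is a description of the letters and says nothing of binding or methylation.

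The measured quantity was a signal, coverage averaged over a gene's exons, as normalized by the authors. It is per base of merged exons, which corrects for gene length but not for exons left unused or shared with other genes. Orders and ratios between genes below are of this signal, and how well they compare transcript amounts was not tested. The summed signal was 164236 to 178548 per library, and 9516 to 9608 genes per library had a signal of at least 1. Across tested genes the 0 h libraries were each other's nearest (r = 0.9941, on the log2 scale), whereas each of the 6 treated libraries was nearest to a library of another time. The corticotrope markers summed to a signal of 538 to 732 per library, almost all of it Pomc, with means of 629, 526, 544 and 670 at the 4 times, and 5 of those 7 markers had a mean of at least 1. Of these 5, limma called only Nr3c1, the glucocorticoid receptor gene, which fell from a mean of 5.0 at 0 h to 3.56 at 72 h (log2 -0.40, adjusted p = 0.0440). That call held without either 24 h library (0.0144 and 0.0142) and was lost without any 1 of the other 6 (adjusted p = 0.0955 to 0.252 in limma). The receptors Crhr1 and Avpr1b, also corticotrope markers, were at or near 0. Pax7, whose values may hold reads of the introduced gene, was at 13.1, 13.3, 14.3 and 13.8 at the 4 times. Of 8 macrophage markers 0 had a mean of at least 1 and their sum was 0.753 to 0.788 at 0 h and 0.876 to 0.956 at 72 h. Csf1r made up most of it, at 0.484 and 0.538. The 5 endothelial markers summed to at most 0.0826, with Kdr at 0 in every library, and the 6 fibroblast markers to at most 0.555, with Col1a2 and Lum at 0 in every library.

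Only part of the bridging system was detected well in these cells. Over the 8 libraries, Mfge8 and Anxa5 had a mean signal of at least 1, Itgav, Itgb5, Gas6 and Tyro3 lay between 0.1 and 1, and Itgb3, Pros1, Axl and Mertk lay below 0.1. At 0 h the order of the means was Anxa5, Mfge8, Tyro3, Itgb5, Itgav, Gas6, Itgb3, and then Axl, Pros1 and Mertk. At 72 h it was Mfge8, Anxa5, Itgb5, Gas6, Tyro3, Itgav, and then Itgb3, Axl, Mertk and Pros1, whose libraries overlapped. Mfge8 thus passed Anxa5, and Gas6 and Itgb5 passed Tyro3. Neighbours in the order down to Itgb3 did not overlap between their libraries at either of these times.

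**Figure D1:**
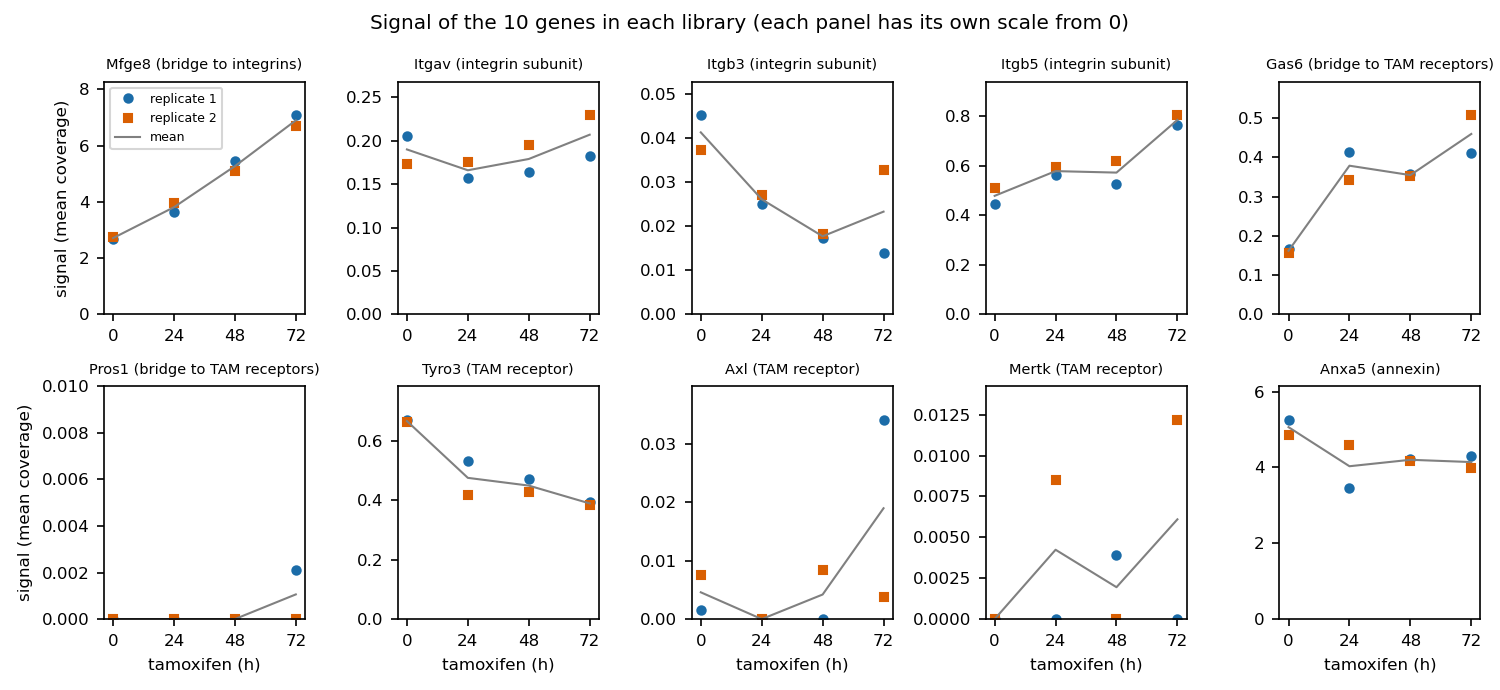
Signal (mean coverage over exons, own linear scale from 0 in each panel) of the 10 genes against hours of tamoxifen; circles and squares are the libraries of replicates 1 and 2 and the line joins their means. Mfge8 climbed at each step from a mean of 2.71 to 6.90, whereas Pros1, Axl and Mertk stayed at or below 0.0342 in every library.

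For scale, limma called 22 of 9606 genes at 24 h against 0 h (0.229%), 53 at 48 h (0.552%) and 193 at 72 h (2.01%), at a Benjamini-Hochberg adjusted p under 0.05, among genes whose mean signal reached 1. Of the members other than Mfge8 only Anxa5 entered that fit, and it was called at 0 of the 3 times, with an unadjusted p under 0.05 at 24 h only, where 13.2% of all genes had one. The 4 members with means between 0.1 and 1 were read from a limma fit with a lower floor, a mean of at least 0.1 and log2(signal + 0.1), over 17871 genes. Of these 4, 0 were called at 24 h, where 0.162% of all genes were, 0 at 48 h, where 0.548% were, and 2 at 72 h, where 1.57% were. At an unadjusted p under 0.05 the numbers were 2, 2 and 3, against 11.4%, 9.93% and 14.0% of all genes. Both calls, Gas6 and Itgb5, were higher at 72 h, and 0.996% of all genes were called higher there. Beside Mfge8, which was chosen for its rise, 5 members had a mean of at least 0.1. Of these 5, Itgb5 and Gas6 had all 6 treated libraries above both 0 h libraries, against 8.12% of all genes with that mean. Tyro3 and Anxa5 had all 6 below, against 6.84% of all genes, and Itgav had neither.

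Mfge8 rose at every step of the time course. Its gene (ENSMUSG00000030605.15) lies on chromosome 7 from 79133768 to 79149060 on the minus strand of GRCm38 and has 4694 exonic bases, 0% of them inside the span of another listed gene. The signal was 2.69 and 2.74 in the 0 h libraries, 3.65 and 3.96 at 24 h, 5.44 and 5.09 at 48 h, and 7.10 and 6.70 at 72 h. No library of a later time overlapped one of an earlier time. The means were 2.71 ± 0.0307 (SD, n = 2, as throughout), 3.81 ± 0.223, 5.27 ± 0.244 and 6.90 ± 0.285, which are ratios of 1.40, 1.94 and 2.54 to 0 h. The steps between successive means were 1.09, 1.46 and 1.64. On the log2(signal + 1) scale, which understates changes of low genes, the differences from 0 h were 0.37, 0.75 and 1.09, each with an SE of 0.06. A rise without overlap at all 3 steps was found in 72 of the 9606 genes (0.750%), and a fall of that kind in 34 (0.354%). In level, Mfge8 went from above 51.5% of tested genes at 0 h to above 81.8% at 72 h, and its log2 difference at 72 h was rank 24 of 9606. These places in the list follow from how Mfge8 was chosen. In bulk RNA, a change in the share of cells that make a transcript and a change in RNA per cell cannot be told apart.

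The integrin subunits that receive Mfge8 were at lower levels than Mfge8 itself and did not move together. Itgav, the alpha subunit shared by both integrins (ENSMUSG00000027087.11, chromosome 2, 83724397 to 83806916), was at 0.206 and 0.173 at 0 h, 0.157 and 0.176 at 24 h, 0.164 and 0.195 at 48 h, and 0.183 and 0.230 at 72 h. Its treated libraries overlapped the 0 h range at every time. The log2 differences in the lower-floor limma fit were -0.12, -0.05 and 0.08 (SE 0.15), with adjusted p = 0.803, 0.950 and 0.881, and the sign at 48 h and at 72 h turned when single libraries were left out. Part of its exonic sequence, 34.42%, lies inside the spans of other genes, of which Gm13684 was at 0.0209 or less in every library.

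Itgb5, the beta subunit of the second integrin (ENSMUSG00000022817.15, chromosome 16, 33829665 to 33949338), was at 0.447 and 0.511 at 0 h, 0.562 and 0.596 at 24 h, 0.528 and 0.619 at 48 h, and 0.765 and 0.807 at 72 h. All 6 treated libraries lay above both 0 h libraries, with the 72 h libraries highest. The means were 0.479 ± 0.0458, 0.579 ± 0.0247, 0.573 ± 0.0644 and 0.786 ± 0.0293, or 1.21, 1.20 and 1.64 times 0 h. The lower-floor limma fit gave log2 differences of 0.23, 0.22 and 0.62 (SE 0.11) and adjusted p = 0.486, 0.583 and 0.0450, so Itgb5 rose at 72 h with an adjusted p close to the threshold. That call was lost with any 1 of the 8 libraries left out (adjusted p = 0.0552 to 0.278 in limma). It was kept in 2 of 6 other settings, with the replicate number as a block (0.0472) and with a pseudocount of 0.01 (0.0448).

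Itgb3, the beta subunit of the other integrin (ENSMUSG00000020689.4, chromosome 11, 104608000 to 104670476), had the lowest level of the 3 subunits. It was at 0.0453 and 0.0373 at 0 h, 0.0251 and 0.0271 at 24 h, 0.0173 and 0.0182 at 48 h, and 0.0138 and 0.0327 at 72 h. All 6 treated libraries were below both 0 h libraries, but these signals are under the floor of 0.1. In a limma fit with no filter and log2(signal + 1) the adjusted p was 0.644, 0.443 and 0.457. Within libraries, the ratio of Itgb5 to Itgav signal was 2.17 and 2.95 at 0 h, 3.58 and 3.39 at 24 h, 3.23 and 3.18 at 48 h, and 4.18 and 3.51 at 72 h. It was higher in each treated library than in each 0 h library. Beside the climbing Mfge8 there was thus little Itgb3, an Itgav that stayed in its 0 h range or near it, and an Itgb5 that was highest at 72 h.

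Of the bridges to the receptor kinases, Gas6 was present and Pros1 was not detected in most libraries. Gas6 (ENSMUSG00000031451.6, chromosome 8, 13465374 to 13494490, minus strand) was at 0.167 and 0.156 at 0 h, 0.415 and 0.343 at 24 h, 0.357 and 0.353 at 48 h, and 0.411 and 0.509 at 72 h. Unlike Mfge8, it was already at its later range at 24 h, and the 24 h libraries overlapped those of 48 and 72 h. The means were 0.162 ± 0.00823, 0.379 ± 0.0510, 0.355 ± 0.00279 and 0.460 ± 0.0694, or 2.34, 2.20 and 2.84 times 0 h. The lower-floor limma fit gave log2 differences of 0.87, 0.80 and 1.09 (SE 0.14) and adjusted p = 0.0889, 0.0743 and 0.0148, so Gas6 rose at 72 h, and the differences at 24 and 48 h did not pass the threshold. The 72 h call was lost without 0 h replicate 1 (adjusted p = 0.123 in limma), 0 h replicate 2 (0.111), 72 h replicate 1 (0.0597) or 72 h replicate 2 (0.101), and was kept without any 1 of the 24 and 48 h libraries. Without a filter and with a pseudocount of 1 it was also lost (adjusted p = 0.104 in limma).

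The far end of Gas6 runs into Tmem255b, a gene on the opposite strand. Only 1.33% of Gas6 exonic bases lie in Tmem255b exons, but 36.46% lie inside its span. Tmem255b was at 0.0674 and 0.0988 at 0 h, 0.169 and 0.254 at 24 h, 0.312 and 0.273 at 48 h, and 0.232 and 0.289 at 72 h. It too was higher in every treated library than at 0 h, and its log2 difference at 72 h in the lower-floor limma fit was 0.98 (adjusted p = 0.0563). No source used here gives the strand setting of the counting, and the part of Tmem255b reads in the Gas6 signal was not tested. Pros1 (ENSMUSG00000022912.8, chromosome 16, 62854307 to 62929346) was listed at 0 in 7 libraries and at 0.00213 in 72 h replicate 1.

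Among the receptor kinases, Tyro3 alone was above the floor. Tyro3 (ENSMUSG00000027298.17, chromosome 2, 119797733 to 119818104) was at 0.671 and 0.662 at 0 h, 0.531 and 0.419 at 24 h, 0.470 and 0.428 at 48 h, and 0.395 and 0.383 at 72 h. All 6 treated libraries lay below both 0 h libraries, and those of 72 h were lowest. The means were 0.666 ± 0.00581, 0.475 ± 0.0792, 0.449 ± 0.0298 and 0.389 ± 0.00850, or 0.713, 0.673 and 0.584 times 0 h. The log2 differences were -0.42, -0.48 and -0.65 (SE 0.12) with adjusted p = 0.283, 0.188 and 0.0514 in the lower-floor limma fit, so Tyro3 just missed the threshold at 72 h. It passed without 24 h replicate 1 (adjusted p = 0.0327 in limma), without 24 h replicate 2 (0.0315) and after trimmed mean rescaling of the libraries (0.0444), and with 1 of the other libraries left out the adjusted p was up to 0.279.

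Axl (ENSMUSG00000002602.16, chromosome 7, 25757273 to 25788705) was at 0.0342 in 72 h replicate 1 and between 0 and 0.00842 in the other 7 libraries. Mertk (ENSMUSG00000014361.5, chromosome 2, 128698956 to 128802894) was listed at 0 in 5 libraries and reached at most 0.0122. Neither shows an order over the times at such signals. The ratio of Tyro3 to its ligand Gas6 within libraries was 4.0 and 4.25 at 0 h, 1.28 and 1.22 at 24 h, 1.32 and 1.21 at 48 h, and 0.963 and 0.754 at 72 h. In signal, the receptor was thus above the ligand at 0, 24 and 48 h, and below it in both 72 h libraries. The Gas6 signal may hold reads of Tmem255b, and which of the 2 transcripts was more abundant was not tested.

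Anxa5, which covers phosphatidylserine rather than bridging it, was the highest of the 10 genes before tamoxifen. Anxa5 (ENSMUSG00000027712.13, chromosome 3, 36448923 to 36475894, minus strand) was at 5.26 and 4.86 at 0 h, 3.46 and 4.59 at 24 h, 4.23 and 4.17 at 48 h, and 4.29 and 3.99 at 72 h. All 6 treated libraries lay below both 0 h libraries, but the 24 h libraries spanned those of the later times. The means were 5.06 ± 0.283, 4.03 ± 0.799, 4.20 ± 0.0441 and 4.14 ± 0.214. The limma fit with a mean of at least 1 gave log2 differences of -0.28, -0.22 and -0.24 (SE 0.10) and adjusted p = 0.320, 0.509 and 0.322. At 24 h the gene was called only without 24 h replicate 2 (log2 -0.44, adjusted p = 0.0469 in limma). The ratio of Mfge8 to Anxa5 within libraries went from 0.512 and 0.563 at 0 h to 1.05 and 0.863 at 24 h, 1.29 and 1.22 at 48 h, and 1.65 and 1.68 at 72 h. Mfge8 was above Anxa5 in all 4 libraries of 48 and 72 h.

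**Figure D2:**
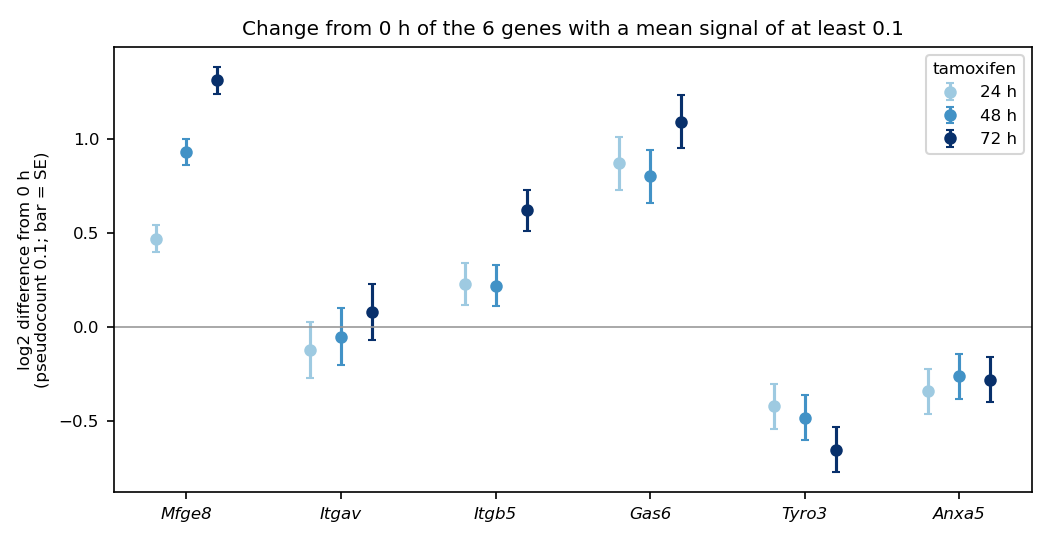
Log2 difference from 0 h (log2(signal + 0.1); points are limma estimates from 2 libraries against 2, bars are SE) at 24, 48 and 72 h for the 6 genes whose mean signal was at least 0.1. On this scale Mfge8 stood at 0.47, 0.93 and 1.31, Gas6 lay near its later level already at 24 h, and Tyro3 and Anxa5 lay below 0.

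Over the 8 libraries the log2 values of Itgb5 and Gas6 correlated with those of Mfge8 at r = 0.860 and 0.843, those of Itgav at 0.254, those of Anxa5 at -0.486 and those of Tyro3 at -0.908. These are descriptions of 8 libraries from 1 time course, which share their 0 h level and their hours.

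Around these 10 genes, 94 genes in 12 lists of the same pathway were read from the same fits, lists that were drawn up with earlier results of these data known. Of the 36 with a mean signal of at least 1, limma called 0 at 24 h, 0 at 48 h and 0 at 72 h, against 0.229%, 0.552% and 2.01% of all genes, and 4, 5 and 7 had an unadjusted p under 0.05, against 13.2%, 10.5% and 15.7% of all genes. Their median log2 difference was -0.02, -0.04 and 0.02, against 0.01, 0.00 and 0.01 for all tested genes. With the lower floor, 55 list genes were tested and limma called 0, 0 and 1, against 0.162%, 0.548% and 1.57% of all genes in that fit. At an unadjusted p under 0.05 there were 6, 8 and 12 of the 55, against 11.4%, 9.93% and 14.0%.

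That 1 call was Tgfb3, a growth factor whose latent form holds an RGD motif read by Itgav integrins. It was at 0.403 and 0.279 at 0 h, 0.306 and 0.463 at 24 h, 0.628 and 0.583 at 48 h, and 0.816 and 0.775 at 72 h. Like Mfge8 it was highest at 72 h, but its 24 h libraries overlapped those of 0 h. The log2 difference at 72 h was 1.04 (adjusted p = 0.0474 in the lower-floor limma fit). The call held without either 24 h library (0.0286 and 0.0285). It was lost without any 1 of the other 6 libraries (adjusted p = 0.0974 to 0.247 in limma) and in each of 6 other settings (0.0522 to 0.144), and 56.43% of Tgfb3 exonic bases lie inside the spans of other genes. The other RGD ligands Vtn (vitronectin) and Fn1 (fibronectin) were at or below a mean of 0.0568 at every time.

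Other integrin subunits included the highest integrin signal of the lists, Itgb1, the common beta subunit, at means of 17.9, 16.4, 16.9 and 17.0 (limma adjusted p = 0.405, 0.701 and 0.586). Itga2b, the platelet alpha subunit, was at 0.250 at 0 h and 0.291 at 72 h, and Itgb8, another partner of Itgav, at 0.0989 and 0.139. Other bridging proteins were low: none of 9 reached a mean of 1. Lgals3 (galectin 3) was at 0.118 at 0 h and 0.298 at 72 h, with an adjusted p of 0.142 in the lower-floor limma fit. Tub, the highest of the 9 in mean signal, was at 0.5 and 0.537, and Apoh at 0.222 and 0.153 (adjusted p = 0.804 and 0.496 at 72 h in the same limma fit).

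Receptors that bind phosphatidylserine directly included Stab1 (stabilin 1), at 1.89, 1.42, 1.33 and 1.39, with limma adjusted p = 0.178, 0.0989 and 0.0719. Adgrb1, which signals to the engulfment machinery, was at 1.77 and 1.70, and the scavenger receptor Scarb1 at 1.26 and 1.13, at 0 and 72 h. Of the flippase genes, Tmem30a, the subunit most flippases need, was at 8.12 and 7.20 (limma adjusted p = 0.338 at 72 h), and Atp11a, a catalytic subunit, at 1.43 and 1.76 (0.0869). The scramblase gene Ano6 was at 1.12 and 1.15, and the synthesis gene Ptdss1 at 1.35 and 1.25.

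Of 11 other annexins, 5 had a mean of at least 1, and Anxa2, which binds acidic phospholipids, was highest at 12.8, 9.74, 12.0 and 12.6. The enzymes that recycle vitamin K, Vkorc1 and Vkorc1l1, were at 10.7 and 11.4 and at 2.08 and 2.02 at 0 and 72 h, and the carboxylase Ggcx, which Gas6 and Pros1 need, was at 0.362 and 0.412. The sheddase Adam10, a protease known to release Axl from cells, was at 6.63, 7.14, 8.30 and 8.47, with limma adjusted p = 0.593, 0.156 and 0.0719. Adam17, known to release Mertk, was at 1.12 and 1.14. Of the exosome proteins Cd9 was at 35.5 and 29.9 and Cd81 at 33.6 and 37.8 at 0 and 72 h (limma adjusted p = 0.223 and 0.323). The engulfment GTPase Rac1 was at 10.9 at both times. Of the exonic bases of Rac1, 51.36% lie in exons of Daglb, and of those of Vkorc1, 47.74% lie in exons of Gm21974, so reads of these neighbours are not separated.

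With either 24 h library left out, the log2 differences at 48 and 72 h were 0.29 and 0.31 for Adam10 and -0.31 and -0.28 for Stab1. Anxa7, a gene chosen here after its values were seen, was at 0.30 at 72 h in the same settings. All of these are the same as with every library kept, as they had to be. The 24 h libraries enter these comparisons only through the estimate of the spread, so the sameness is no sign of stability. Without 24 h replicate 2, which leaves 1 library at 24 h, Anxa2 was at -0.57 at 24 h, against -0.37 with every library. Removal of that library also took Anxa5 further from 0 h.

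**Figure D3:**
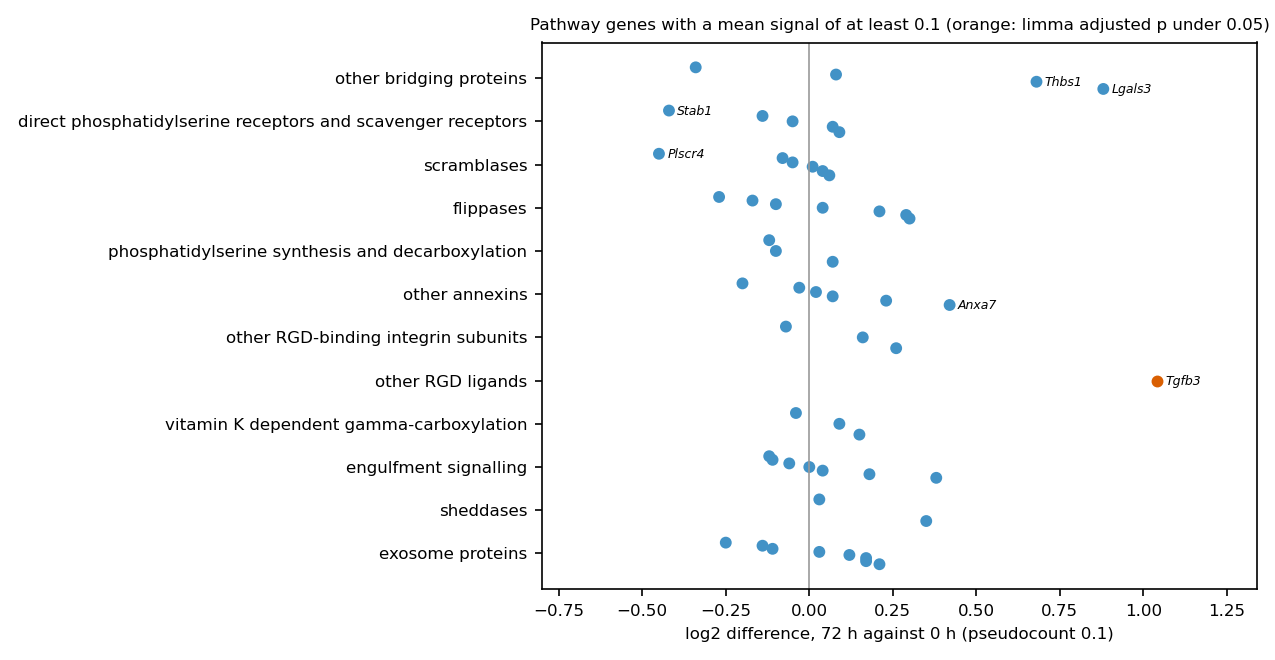
Log2 difference at 72 h against 0 h (log2(signal + 0.1), limma estimates, 2 libraries against 2) of the 55 pathway genes whose mean signal was at least 0.1, by list. Points lie on both sides of 0 in most lists, and Tgfb3 at 1.04 is the only one at an adjusted p under 0.05 (orange).

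The rise of Mfge8 was set against its neighbours on chromosome 7. Within 250 kb of its span lie 14 other genes, of which 4 had a mean signal of at least 1. Downstream, Isg20, an interferon-induced exonuclease gene, was at means of 5.93, 5.76, 6.0 and 6.45, and Aen, a p53-regulated nuclease gene, at 1.38, 1.73, 1.46 and 1.65. Upstream, Abhd2, a lipid hydrolase gene, was at 3.88, 3.35, 3.44 and 4.01, and Fanci, a DNA repair gene, at 1.94, 2.09, 1.98 and 2.04. Limma called 0 of the 4 at each time, against 0.229%, 0.552% and 2.01% of all genes, with log2 differences from -0.16 to 0.20 and adjusted p from 0.273 to 0.982, and 2, 1 and 1 had an unadjusted p under 0.05, against 13.2%, 10.5% and 15.7%. At such shares a count of 0 among 4 genes sets these neighbours apart from no others. None of the 4 had a log2 difference as large as that of Mfge8 at the same time. Almost any gene would lie below Mfge8, which was chosen for its rise, so this does not set the neighbours apart either. Differences between genes were not tested.

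**Figure D4:**
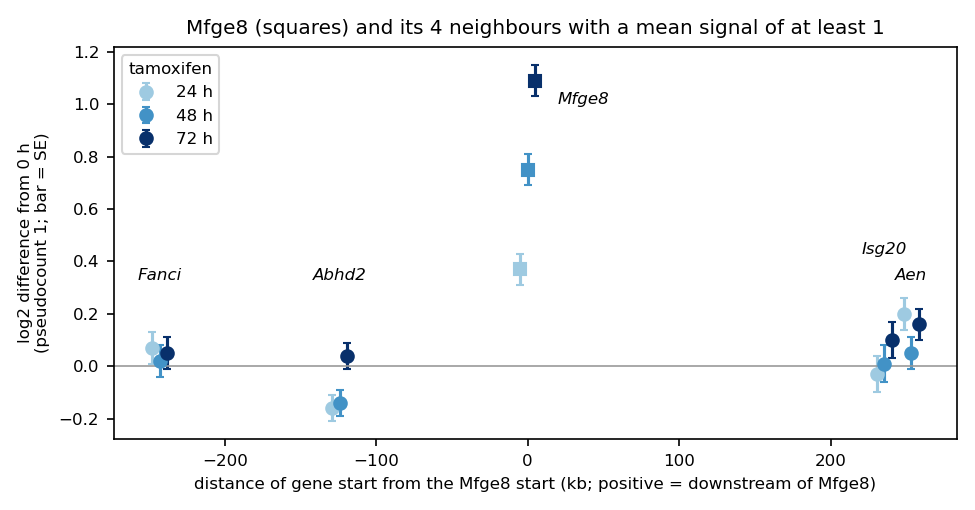
Log2 difference from 0 h (log2(signal + 1); limma estimates, bars are SE, 2 libraries against 2) at 24, 48 and 72 h, against the distance of each gene's start from that of Mfge8 in kb. The 4 neighbours lie between -0.16 and 0.20 at all 3 times, and Mfge8 (squares) reached 1.09.

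By the likeness of their log2 values to those of Mfge8 over the 8 libraries, the closest of the 9606 genes were Rgs4 (Pearson r = 0.9931), Atp9a (0.9879), Nelfcd (0.9847), Dab2ip (0.9832), Olfm1 (0.9832) and Gm46620 (0.9788). Rgs4, a regulator of G protein signalling, was at 0.886, 1.50, 2.44 and 3.51, a ratio of 3.96 at 72 h that exceeded the 2.54 of Mfge8. The other 5 ended at ratios of 1.32 to 1.71. Atp9a, a P4-ATPase of the flippase family, was at 2.76 at 0 h and 3.90 at 72 h. The genes with the most opposite course were Stmn1 (r = -0.9859), Gnb1 (-0.9842) and Kcnk16 (-0.9805). Stmn1, a microtubule regulator, went from 44.0 to 33.6. These genes were picked for their likeness from the libraries in which it is shown, and no p is given.

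**Figure D5:**
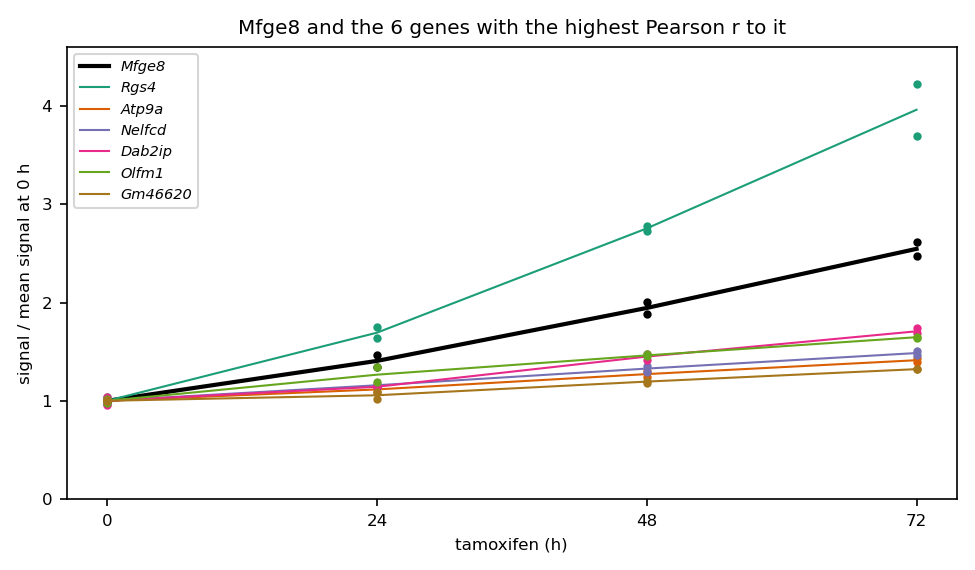
Signal divided by the mean 0 h signal against hours of tamoxifen for Mfge8 (black) and the 6 genes with the highest Pearson r to it; points are libraries (2 per time) and lines join means. All 7 climb at each time, from 1 at 0 h to between 1.32 and 3.96 at 72 h, with Mfge8 at 2.54.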

How the data were processed

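RNA of AtT-20 ER-Pax7 cells was measured in 8 libraries, 2 at each of 0, 24, 48 and 72 h of tamoxifen, assigned by their labels. The labels' molecule field names genomic DNA, whereas the extraction protocol names RNA depleted of ribosomal RNA. The deposited values are a signal, read from the values and columns as mean coverage over merged exons, normalized by the authors. Tools and builds, per the submitters' processing notes, include HISAT2 2.2, SAMtools 1.12, deepTools 3.5, mm10 and GRCm38. No source used here gives the counting tool, strand use, scaling rule or annotation release, and read depth is unknown, so no counting intervals are given. Of the gene identifiers, 98.1% had the same coordinates in GENCODE M21.

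Values of the 9606 genes whose mean signal reached 1 were fitted as log2(signal + 1) with limma 3.58.1 (R 4.3.3), on group alone, with a variance trend over intensity and 4 residual degrees of freedom. Each time was compared with 0 h, with Benjamini-Hochberg adjustment over all genes of the fit and a threshold of 0.05. A second fit had a mean of at least 0.1 and log2(signal + 0.1) (17871 genes). Members below it are given as values, and Itgb3 also from a fit with no filter. Both fits were tested on simulated data, with changes of known size placed at 72 h in 50 genes per size. The changes were added to the log2 values with the pseudocount. For a gene of low signal, a given fold thus stands for a larger fold of the signal itself. The spread was drawn independently for each library, with no tie by replicate number. At 1.25, 1.5, 2.0 and 3.0 fold, the first fit recovered 22, 38, 47 and 50 of them. The second recovered 2, 18, 40 and 42, so a gene it did not call may still have changed. Of the unchanged genes, the first fit called 4 and the second 6.

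The members and lists were chosen with earlier results of these data known. Named genes were all members, list genes that were called, the 3 highest genes of a list at most, neighbours of Mfge8 with a mean of at least 1, the 6 genes most like and the 3 least like it, and markers. The alternatives were another pseudocount, filter, scaling or variance prior, the replicate number as a block, and each library left out.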

Additional observations from a re-analysis of the deposited data

How the results depend on the processing

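The Mfge8 log2 difference kept its sign in all 15 alternatives at each time. This is a description, since Mfge8 was chosen for its rise in these libraries. The replicate block, the variance prior, the absence of a filter and the libraries of times outside a comparison could not move this estimate. Leaving out 1 library at a time gave 0.32 to 0.42 at 24 h, 0.71 to 0.79 at 48 h and 1.05 to 1.13 at 72 h, and a pseudocount of 0.1, alone or with the lower floor, gave 0.47, 0.93 and 1.31; a smaller constant shrinks differences less. Of all genes, limma called 4, 5 and 63 at 24, 48 and 72 h with no filter and 98 at 48 h with the lower floor. Leaving out 1 library gave 2 to 104, 2 to 95 and 9 to 320. Members called with a mean of at least 1 went from 0 to at most 1 at 24 h (Anxa5) and stayed at 0 at 48 and 72 h when a library was left out, and the lower floor added 2 at 72 h. Of the members below that filter, the count at 72 h was 0 to 2 with a library left out, where a count of 2 meant Gas6 and Tyro3, without Itgb5. It fell from 2 to 1 after quantile normalization, to 1 with no intensity trend and to 0 with no filter. After trimmed mean rescaling Gas6 and Tyro3 were called. Pathway list genes called reached 1, 2 and 3 at the 3 times with a library left out, from 0, and 1 at 72 h with the lower floor. Itgav gave -0.13 to 0.03 at 48 h and -0.03 to 0.19 at 72 h, and Tgfb3 -0.10 to 0.37 at 24 h, when a library was left out; the cause was not tested. The pseudocount of 0.01 was chosen after seeing the data.

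The labels tie same-numbered libraries together by number alone. The correlations of their deviations were -0.0163 to 0.402 over 6 pairs of times, 3 of them above 0.1, and 5 of the 6 treated libraries were nearest to a same-numbered library of another time. This is a hint of pairing from the data, not from the design. With the replicate block, limma called 18, 24 and 154 genes, and at 72 h gave adjusted p = 0.0328 for Gas6, 0.0472 for Itgb5 and 0.0638 for Tyro3. Read depth is unknown, so no limit from counting can be given for the members near 0.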
